A study of Mus musculus with 6 samples.

Results

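The calponin and transgelin family was followed in mouse presomitic mesoderm, which lies behind the newest somites of the embryo and segments to form further ones. All 6 family genes, Cnn1, Cnn2, Cnn3, Tagln, Tagln2 and Tagln3, were taken by symbol, and each was read by 1 probe set of its own among 15153 genes measured. The family was chosen because Cnn2 had the largest fall of all genes in mutant tissue, so the values of Cnn2 in mutant against control are given as a description, with no test. The other 5 genes were chosen by their family and not by their values. Tissue was microdissected at embryonic day 9.5, at 17 to 19 somites, and each of the 6 arrays read a pool of 3 presomitic mesoderms. The 3 control pools, labelled wild type, came from embryos whose genotype was Taf10Flox/+ or Taf10flox/flox, and the 3 mutant pools from TCre/+;Taf10flox/flox embryos. All groups therefore carried at least 1 floxed allele. The control labels name no T-Cre, so an effect of the driver and one of Taf10 deletion cannot be told apart. T-Cre expresses the recombinase under regulatory sequence of the T gene, which is active in the primitive streak and early mesoderm. TAF10 is a subunit of the general transcription factor TFIID and of the coactivator SAGA.

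Calponins and transgelins are small actin-binding proteins that share an amino-terminal calponin homology domain and carry short calponin-like repeats. Cnn1 (basic calponin) and Tagln (SM22alpha) are markers of differentiated smooth muscle, and Tagln is also transcribed for a time in the embryonic heart and somites. Cnn2 and Cnn3 are calponins of non-muscle cells that bind actin stress fibres, Tagln2 is a widely expressed transgelin, and Tagln3 (NP25) is expressed mainly in neurons. Many genes of actin and smooth muscle are transcribed by serum response factor (SRF) with its coactivators of the myocardin family, which binds a motif called the CArG box.

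The promoter of Cnn2 is shown because it held a perfect CArG box, set in capitals, and that of Cnn3 because Cnn3, the other non-muscle calponin, held none and differed little between the genotypes. Both were picked with these values known, so the contrast between them is no finding. RefSeq windows on build GRCm38.p6 were matched for 5 of the 6 genes, and the 250 bases before the start were used. Tagln had no window, so whether it holds a CArG box was not searched. Both sequences below lie on the plus strand and run 5′ to 3′, Cnn2 at chr10:79988350-79988599 and Cnn3 at chr3:121426291-121426540.
Cnn2: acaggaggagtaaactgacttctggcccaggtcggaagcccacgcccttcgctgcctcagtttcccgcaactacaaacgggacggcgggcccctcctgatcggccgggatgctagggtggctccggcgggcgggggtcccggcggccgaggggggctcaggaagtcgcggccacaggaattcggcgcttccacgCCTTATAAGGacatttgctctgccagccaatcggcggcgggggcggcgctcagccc
Cnn3: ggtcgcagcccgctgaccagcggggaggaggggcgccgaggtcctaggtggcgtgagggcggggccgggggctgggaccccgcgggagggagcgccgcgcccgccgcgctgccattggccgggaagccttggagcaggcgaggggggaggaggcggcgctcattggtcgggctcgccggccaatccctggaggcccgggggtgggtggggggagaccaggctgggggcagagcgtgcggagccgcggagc
The box of Cnn2 spans bases 56 to 47 before the start and reads the same on both strands. Windows of Cnn1, Cnn3, Tagln2 and Tagln3 held no CArG box by the same search. Of 32851 windows of this length, 482 held one on either strand, or 1.47%. The letters TATAAA, searched on both strands, were in none of the 5 windows and in 12.4% of all windows. CCAAT was found in the windows of Cnn1, Cnn2, Cnn3 and Tagln3 and in 33.8% of all, and GGGCGG in those of Cnn2, Cnn3 and Tagln2 and in 32.7% of all. A match is a run of letters and was not tested as a binding site.

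The arrays were alike in median intensity, from 307.9 to 317.5. Mutant 3 lay farthest from its group mean, with a root mean square distance of 0.176 log2 units (0.0758 to 0.108 on the remaining 5). Several results that rest on mutant 3 are given with and without it. Control 3 read Xist, which marks female cells, at a log2 level of 6.32 against 11.3 to 12.6 on the other arrays, so the sexes were not balanced. The Taf10 probe set with the higher level stood at log2 levels of 10.8, 10.6 and 10.7 in controls and 10.4, 10.4 and 10.2 in mutants (log2 change -0.37, SE 0.08, limma adjusted p = 0.0400). For the second Taf10 probe set the change was 0.11 (SE 0.10, limma adjusted p = 0.530). The 2 probe sets thus differed, and the extent of the deletion was not taken from either. The first Taf10 probe set has a number between those of Cnn2 and Tmem259, genes of chromosome 10, and the second a number far from it. Cnn2 and Tmem259 are neighbours on the chromosome with numbers far apart, so the number does not place the first probe set beside Cnn2. Since nearby numbers of the array mostly share a chromosome, the 2 Taf10 probe sets are unlikely to lie at 1 locus. Which of them reads Taf10 was not tested. The call of the first was lost without control 1, 2 or 3 or mutant 1 or 2 (limma adjusted p from 0.0641 to 0.169) and held without mutant 3 (0.0185). Of 14 presomitic and tailbud markers 13 were measured, Msgn1 had the highest mean log2 level at 12.4, and their summed intensity was 25071 to 26196 in controls and 28341 to 30515 in mutants. In this list Tbx6 and Hes7 rose and Cyp26a1 and Rspo3 fell at a limma adjusted p under 0.05, which 5.92% of all genes passed. Of the 13, 7 had an unadjusted limma p under 0.05, against 22.7% of all genes.

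Cnn2 was at log2 levels of 9.93, 9.51 and 9.67 in control pools 1 to 3 and at 7.78, 8.32 and 8.12 in mutant pools 1 to 3. All 3 mutant pools lay below all 3 controls, and the gap of more than 1 log2 unit between the groups was wider than the range within either. The mean was 9.71 ± 0.21 in controls and 8.07 ± 0.28 in mutants (SD, n = 3 each), a log2 difference of -1.63 (SE 0.15), or 32.2% of control. The next largest fall was that of Rabggtb, a subunit of the enzyme that prenylates Rab proteins, at a log2 difference of -1.55 or 34.2% of control. Without mutant 3 the difference for Rabggtb was -1.22, a smaller fall than the -1.29 of the small nucleolar RNA Snord52. Without mutant 1 it was -1.75, a larger fall than the -1.48 of Cnn2, so the rank of Cnn2 was lost there. With 1 array left out, the difference for Cnn2 ran from -1.76 (without mutant 2) to -1.48 (without mutant 1), and it was -1.66 without mutant 3. In pools of tissue, fewer cells that express a gene and less RNA per cell cannot be told apart.

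Of the 5 other family genes, 0 passed limma's adjusted p of 0.05, against 5.92% of all genes (2.96% higher and 2.96% lower). At an unadjusted p under 0.05 there was 1, Tagln3, against 22.7% of all genes. Their median log2 change was -0.17, beside 0.03 over all genes, and 4 of the 5 changes were negative. Since Cnn2 chose the family from this same comparison, nothing is read from these counts. Levels are those of 6 different probe sets and were not compared between genes.

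**Figure D1:**
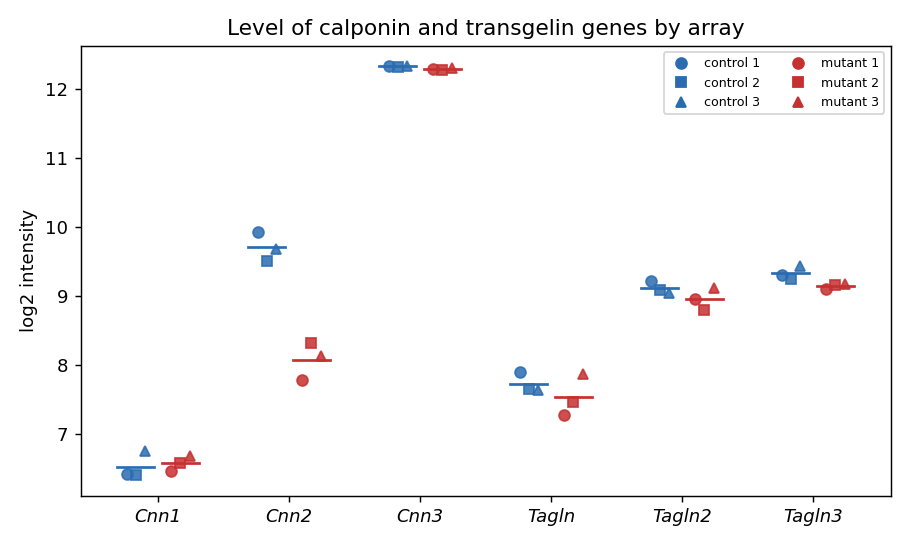
Log2 intensity (y axis) of the 6 calponin and transgelin genes (x axis) on each of 3 control (blue) and 3 mutant (red) arrays; symbols mark the array and short lines the group means. The Cnn2 means are 9.71 and 8.07, and no other gene shows a gap of that kind; heights of different genes are not comparable.

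The remaining calponins showed small differences. Cnn3, the acidic calponin of non-muscle cells, was read at log2 levels of 12.33, 12.32 and 12.33 in controls and 12.29, 12.28 and 12.30 in mutants. Control pools of Cnn3 differed by less than 0.01, and the mutant values lay just below them without overlap, as did those of 32.3% of all genes in one direction or the other. The log2 change was -0.04 (SE 0.06, 95% interval -0.17 to 0.10, limma adjusted p = 0.728), or 97.5% of control, and it turned to 0.04 after quantile normalization. Cnn1, the smooth muscle calponin, stood at 6.42, 6.40 and 6.75 in controls and 6.46, 6.58 and 6.67 in mutants. These groups overlapped, and control 3 was the highest of the 6 arrays. The control level of Cnn1 was low, at percentile 17.9 of all genes, which limits what its values can show. The log2 change was 0.05 (SE 0.11, 95% interval -0.20 to 0.30, limma adjusted p = 0.818), with a sign that turned to -0.007 after quantile normalization and to between -0.015 and -0.004 without control 1, control 2 or mutant 3.

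The 3 transgelins all had lower means in the mutant, and none passed with all arrays. Tagln, the smooth muscle transgelin, was at log2 levels of 7.90, 7.65 and 7.63 in controls and 7.28, 7.46 and 7.86 in mutants. Mutants 1 and 2 lay below all controls and mutant 3 lay among them. The log2 change was -0.19 (SE 0.15, 95% interval -0.54 to 0.15, limma adjusted p = 0.470). Without mutant 3 it was -0.36 (SE 0.10, limma adjusted p = 0.0476) and passed, as it did with array weights (-0.27, limma adjusted p = 0.0307) and without both control 3 and mutant 3 (-0.41, limma adjusted p = 0.0396). Without mutant 1 it was -0.07 (limma adjusted p = 0.776) and without control 1 it was -0.11 (0.827).

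Markers of cardiac and vascular smooth muscle, 12 of 12 measured, had mean differences of both signs, with 4 of 12 lower and a median log2 change of 0.07. At limma's threshold 0 rose and 1 fell, and 3 of the 12 had an unadjusted limma p under 0.05. Over all genes 5.92% passed limma's threshold and 22.7% had an unadjusted p under 0.05, as background for the marker lists below too. The summed intensity of these 12 markers, to which Acta2 added most, was 4109, 3994 and 3865 in controls 1 to 3. It was 3487, 3556 and 3971 in mutants 1 to 3. Mutant 3 lay among the controls in this sum, as it did for Tagln, but not for each marker. In mutant 3 Acta2 stood at a log2 level of 10.462, just below its lowest control at 10.466. Actc1 stood there at 9.08, against 9.38 in its lowest control. Of these markers Actc1, cardiac actin, fell (log2 -0.41, SE 0.08, limma adjusted p = 0.0245) and the other 11 did not pass, with Myl7 read lowest at a mean log2 level of 6.53. The part of such cells in the Tagln values was not tested. Endothelial markers, 8 of 8 measured with 0 past limma's threshold and 0 at an unadjusted p under 0.05, summed to 954 to 2283 in controls and 835 to 1610 in mutants, and Tek was read lowest, at a mean log2 level of 6.46. An array gives no true zero, so a marker read low is not shown to be absent.

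Tagln2, the transgelin of many non-muscle cells, was read at log2 levels of 9.22, 9.09 and 9.05 in controls and 8.95, 8.79 and 9.11 in mutants. Mutant 3 was again the mutant pool that overlapped the controls. The log2 change was -0.17 (SE 0.09, 95% interval -0.39 to 0.05, limma adjusted p = 0.334). It was -0.25 without mutant 3 (limma adjusted p = 0.0719) and -0.09 without mutant 2 (0.606), and it passed in 1 of 14 alternatives, with array weights (-0.28, limma adjusted p = 0.0111).

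Tagln3, the neuronal transgelin, stood at 9.31, 9.24 and 9.43 in controls and 9.10, 9.16 and 9.17 in mutants. Here all mutant pools, mutant 3 included, lay below all controls, though the nearest pair differed by less than 0.1. The log2 change was -0.19 (SE 0.07, 95% interval -0.35 to -0.02, unadjusted p = 0.0313 and adjusted p = 0.171 in limma), or 87.9% of control. Its adjusted p ran from 0.0528 with array weights to 0.359 without control 3. Neuronal markers, 10 of 12 measured, summed to 1428 to 1523 in controls and 1301 to 1449 in mutants. Stmn2, a stathmin of growing neurites, fell (log2 -0.80, SE 0.10, limma adjusted p = 0.00698), the other 9 did not pass, and 6 of the 10 had a higher mean in the mutant (median log2 change 0.08). At an unadjusted limma p under 0.05 there was 1 of the 10 neuronal markers, against 22.7% of all genes, of which 5.92% passed limma's threshold. Dcx was read lowest at a mean log2 level of 5.67. Neural tube markers, 8 of 8 measured, summed to 1895 to 2097 in controls and 1988 to 2061 in mutants with 0 past limma's threshold and 0 at an unadjusted p under 0.05. The part of neural cells in the Tagln3 values was not tested.

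**Figure D2:**
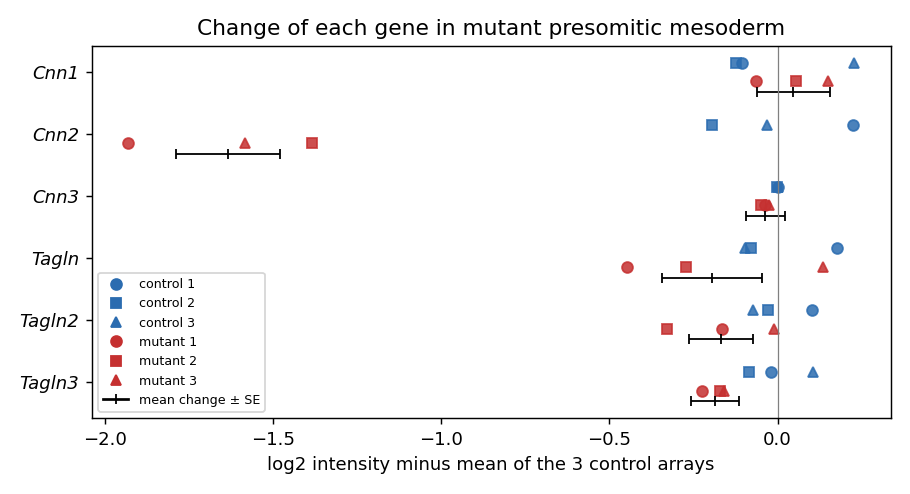
Log2 intensity relative to the control mean (x axis) for each family gene (rows), with 3 control (blue) and 3 mutant (red) arrays as points and the mean change ± SE of the limma fit in black. Cnn2 lies at -1.63; the changes of the other 5 genes lie between -0.19 and 0.05, and mutant 3 (red triangle) lies among the controls for Tagln and Tagln2.

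The genes next to each member on its chromosome were read to see whether the differences extended to them. In the order of the RefSeq table, 3 measured genes on each side of the 6 members gave 36 neighbours, of which limma called 0 (background 5.92%), and 6 had an unadjusted p under 0.05 (22.7% of all genes). Cnn2 lies between Tmem259, a membrane protein gene (log2 change 0.11, SE 0.10, limma adjusted p = 0.541), and Abca7, a lipid transporter (log2 change 0.08, SE 0.06, limma adjusted p = 0.483). Abca7 was at log2 levels of 7.28, 7.27 and 7.28 in controls and 7.31, 7.35 and 7.40 in mutants, so its mutant pools lay slightly above the controls where those of Cnn2 lay far below. The 6 neighbours of Cnn2 ran from -0.04 to 0.22, the latter being Polr2e, a subunit of RNA polymerase II. Those of Tagln ran from -0.16 to 0.33. Its nearest were the protease gene Pcsk7, which overlaps Tagln in the table (log2 change 0.20, limma adjusted p = 0.162), and Sidt2, a lysosomal membrane protein gene (log2 change 0.24, limma adjusted p = 0.230). The nearest of the other members were Ecsit (-0.04) and Elof1 (0.09) for Cnn1, Alg14 (-0.36) and Slc44a3 (0.12) for Cnn3, Igsf9 (-0.23) and Cfap45 (0.06) for Tagln2, and BC016579 (0.05) and Abhd10 (0.21) for Tagln3, all as log2 changes that did not pass. Alg14 was lowest in mutant 3, and without that array its log2 change was -0.17. Nearby probe set numbers of the array mostly share a chromosome. Of the 20 nearest numbers 19 or 20 lay on the member's own chromosome for each of the 6 members. Grin3b and Abca7 had the numbers beside Cnn2, while that of Tmem259 was far off.

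**Figure D3:**
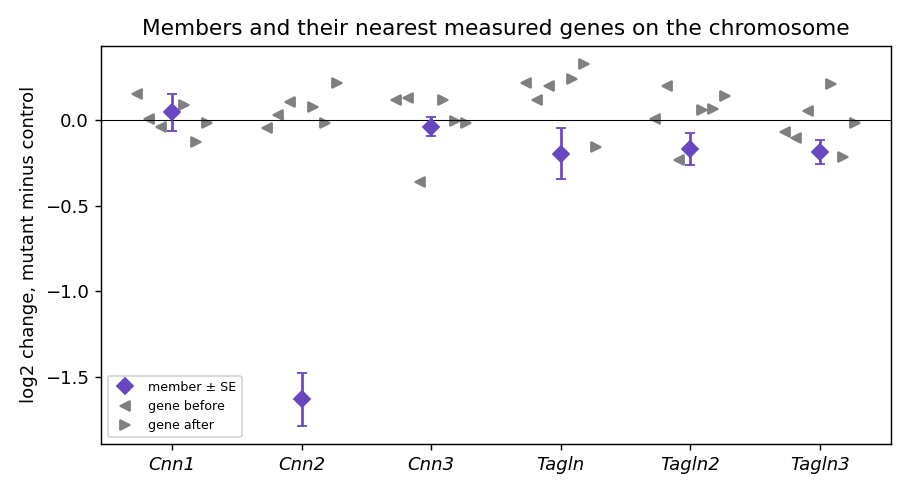
Log2 change, mutant minus control (y axis), of each family gene (diamonds, ± SE) and of the 3 nearest measured genes before and after it on the chromosome (grey triangles pointing left and right). The neighbours of Cnn2 lie between -0.04 and 0.22 while Cnn2 lies at -1.63.

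Genes of the smooth muscle contractile apparatus, the setting in which calponins and transgelins are best known, changed both ways. Of 19 measured (20 listed), 3 fell, 1 rose and 15 did not pass, with a median log2 change of 0.02. At an unadjusted limma p under 0.05 there were 8 of the 19. Over all genes 2.96% fell, 2.96% rose, 22.7% had an unadjusted limma p under 0.05 and the median was 0.03. This holds as background for the lists below too. Tpm1, a tropomyosin that lies along actin filaments, stood at log2 levels of 11.83, 11.85 and 11.74 in controls and 11.09, 11.07 and 11.04 in mutants (log2 change -0.74, SE 0.06, limma adjusted p = 0.00262). Myl9, the regulatory light chain of smooth muscle myosin, stood at 8.32, 8.21 and 8.03 in controls and 7.34, 7.15 and 7.60 in mutants (log2 change -0.82, SE 0.13, limma adjusted p = 0.0132). Neither gene's groups overlapped, and mutant 3 was the highest mutant pool for Myl9 and the lowest for Tpm1. Kcnmb1, a potassium channel subunit of smooth muscle, fell (log2 -0.52, limma adjusted p = 0.0241) and Pdlim7, a scaffold of actin filaments, rose 1.35-fold (log2 0.43, limma adjusted p = 0.0274). Acta2, smooth muscle actin, did not pass (log2 -0.29, SE 0.09, limma adjusted p = 0.113), nor did Myh11, smooth muscle myosin (log2 0.09, limma adjusted p = 0.546). Without control 1 or control 2, 1 gene fell and 0 rose. Without control 3, mutant 1 or mutant 2, 3 fell and 0 rose.

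SRF, its coactivators and cytoskeletal targets, a list without the genes above, gave 1 higher and 3 lower of 27 measured, with a median of -0.10. At an unadjusted limma p under 0.05 there were 14 of the 27. Ccn1, a matricellular protein, rose 1.73-fold, from log2 levels of 9.15, 9.09 and 9.51 in controls to 10.15, 9.99 and 9.97 in mutants (log2 change 0.79, SE 0.12, limma adjusted p = 0.0124). The focal adhesion protein Tes (log2 -0.41, limma adjusted p = 0.0158), the LIM protein Fhl2 (log2 -0.44, limma adjusted p = 0.0481) and the non-muscle myosin heavy chain Myh9 (log2 -0.34, limma adjusted p = 0.0382) fell. The call of Fhl2 was lost with the replicate block (limma adjusted p = 0.0527), with all probe sets (0.0523) and with trended, robust eBayes (0.0501). Srf itself was at log2 levels of 9.996, 9.937 and 9.938 in controls and 9.544, 9.640 and 9.997 in mutants. Mutants 1 and 2 of Srf lay below the controls and mutant 3 level with the highest of them, and the change did not pass (log2 -0.23, SE 0.11, limma adjusted p = 0.281). Myocd (log2 0.38, SE 0.13, limma adjusted p = 0.123), Mrtfa (log2 0.04) and Mrtfb (log2 0.28, limma adjusted p = 0.0591), which encode SRF coactivators, did not pass. Without mutant 3, 7 genes of the list fell and 2 rose. Without control 1 or 2, 0 fell and 0 rose, and without control 3, mutant 1 or mutant 2, 0 fell and 1 rose.

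Other genes with a calponin homology domain gave 5 higher and 2 lower of 54 measured, with a median of 0.01. At an unadjusted limma p under 0.05 there were 15 of the 54. Actn2 (log2 0.39, limma adjusted p = 0.0346) and Actn3 (log2 0.34, limma adjusted p = 0.0245), alpha-actinins of striated muscle that cross-link actin, rose, as did the microtubule tip protein gene Mapre3 (log2 0.34, limma adjusted p = 0.0371), Lrch3 (log2 0.30) and Spef1 (log2 0.43). The scaffold gene Iqgap2 fell to 67.8% of control (log2 -0.56, SE 0.10, limma adjusted p = 0.0201) and Limch1 to 78.0% (log2 -0.36, limma adjusted p = 0.0275). Mapre3, Lrch3 and Spef1 were named to complete the count, after their values were seen. Among 43 actin filament turnover genes (median -0.03), Ezr, which ties filaments to the membrane, fell to 70.0% of control (log2 -0.51, SE 0.07, limma adjusted p = 0.0114), Wasf1, an activator of actin branching, rose 1.24-fold (log2 0.31, limma adjusted p = 0.0475), and Wasf3 (log2 -0.18) and Coro1c (log2 -0.17) were among the 41 that did not pass. Of the 43 turnover genes, 6 had an unadjusted limma p under 0.05. The call of Wasf1 was lost with the replicate block (limma adjusted p = 0.0591) and with trended, robust eBayes (0.0553). Without control 1 or 2, 0 genes of either list passed, and without control 3, mutant 1 or mutant 2 in turn 1, 0 and 1 calponin homology genes rose and 1, 1 and 1 fell, while Ezr still fell. Without mutant 3, 8 calponin homology genes rose and 3 fell, and 1 turnover gene rose and 3 fell.

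**Figure D4:**
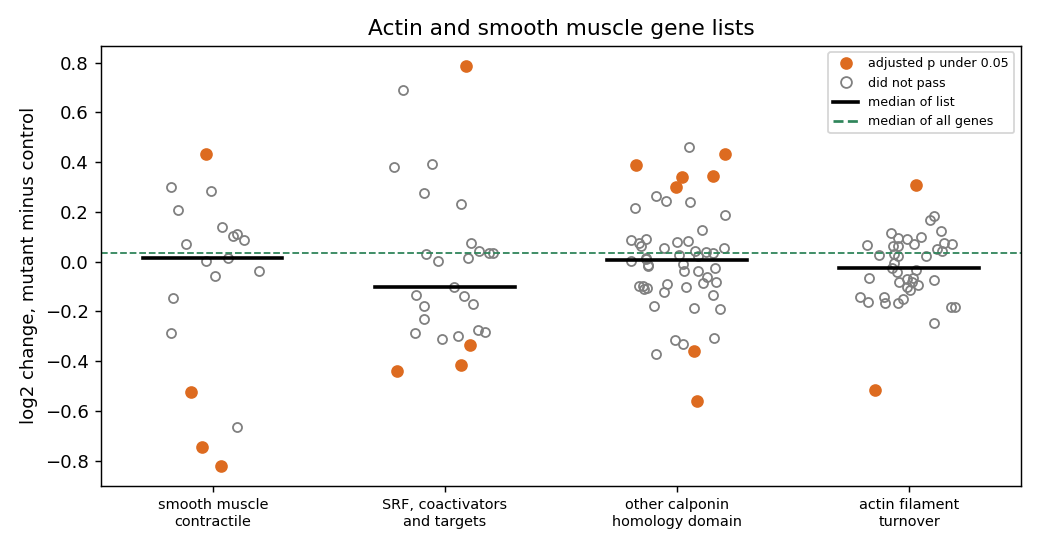
Log2 change, mutant minus control (y axis), of each measured gene (points) in 4 lists: 19 smooth muscle contractile genes, 27 for SRF, its coactivators and targets, 54 other calponin homology domain genes and 43 actin filament turnover genes. Orange points have an adjusted p under 0.05 and bars mark list medians, which run from -0.10 to 0.02; the dashed line is the median of all genes, 0.03.

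The CArG box of Cnn2 was set beside those of other genes. Of 173 measured genes with a box in such a window, 4 were called lower (2.31%) and 2 higher (1.16%), against 2.83% lower and 2.97% higher of all 11935 measured genes with a window. The 4 called lower were Cnn2, Myl9, Fhl2 and Actc1. The 2 called higher were Dusp5, a phosphatase of ERK (log2 0.52), and Mknk2, a kinase of translation factor eIF4E (log2 0.51). Actc1, Dusp5 and Mknk2 were named after their values were seen, and since Cnn2 chose the family its place among the 4 is no finding. Beyond Cnn2, 1 box of 17 smooth muscle contractile genes with a window (Myl9) and 5 of 20 in the SRF list (Srf, Vcl, Fhl1, Fhl2 and Filip1l) were found, with 0 of 48 other calponin homology genes and 2 of 37 actin turnover genes (Arpc4 and Vil1). The SRF list was written as targets of the factor that binds this box, so its share of boxes is no finding. The boxes of the genes called lower are shown with 10 bases on either side, on the strand of the gene, and the box in capitals; Fhl2 has boxes before 2 different starts.
Cnn2, chr10:79988534-79988563, plus strand: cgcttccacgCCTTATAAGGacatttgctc
Myl9, chr2:156775293-156775322, plus strand: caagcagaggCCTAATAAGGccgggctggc
Actc1, chr2:114052903-114052932, minus strand: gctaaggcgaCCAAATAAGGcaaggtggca
Fhl2, chr1:43196838-43196867, minus strand: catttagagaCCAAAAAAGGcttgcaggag
Fhl2, chr1:43163973-43164002, minus strand: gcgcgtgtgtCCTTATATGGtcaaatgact
Of these 5 boxes, that of Cnn2 alone reads the same on both strands. The first base of the box lies 56 bases before the start for Cnn2, 161 for Myl9, 47 for Actc1, and 96 and 31 for the 2 starts of Fhl2.

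The 5 genes whose profile over the 6 arrays lay nearest to that of Cnn2 were Snord52, Msmo1, Snhg5, Rabggtb and Grem1, by the root mean square distance between log2 values relative to each gene's control mean. Distances were 0.303 for Snord52, a small nucleolar RNA, 0.353 for Msmo1, an enzyme of cholesterol synthesis, 0.373 for Snhg5, a non-coding host of small nucleolar RNAs, 0.441 for Rabggtb and 0.480 log2 units for Grem1, a secreted antagonist of bone morphogenetic proteins. These genes share with Cnn2 mutant values all below the controls, at 50.4% of control for Grem1 and 34.2% to 39.5% for the other 4. Cnn2 was lowest in mutant 1 and highest in mutant 2 of the mutant pools, as was Grem1 (log2 levels of 8.44, 8.85 and 8.61 in mutants 1 to 3), while Snord52, Msmo1, Snhg5 and Rabggtb were lowest in mutant 3. The log2 differences of these other 4 were, in that order, -1.39, -1.36, -1.34 and -1.55 with all arrays. Without mutant 3 they were -1.29, -1.14, -1.22 and -1.22. This likeness is a description over 6 arrays that include the comparison by which Cnn2 was chosen.

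**Figure D5:**
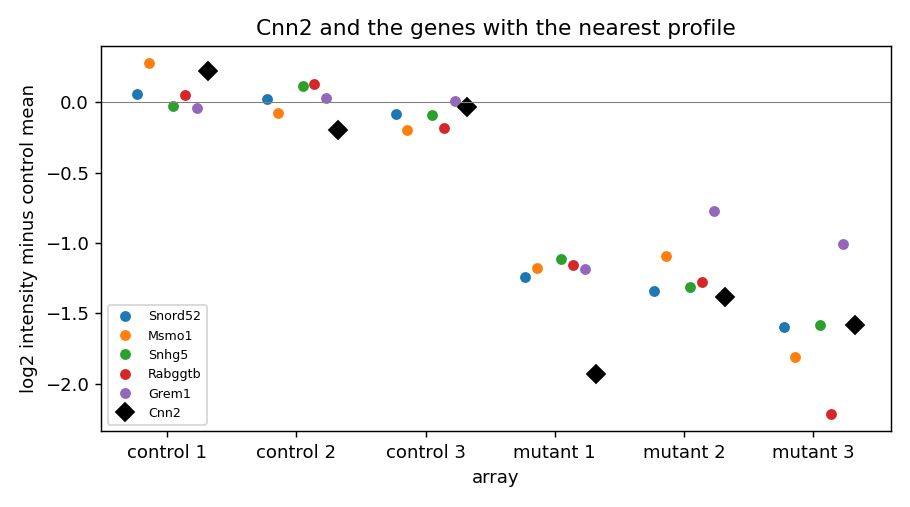
Log2 intensity minus the control mean (y axis) of Cnn2 (black diamonds) and of the 5 genes nearest to it in profile (coloured points) on each array (x axis). All lie below the controls on the 3 mutant arrays; Cnn2 is lowest on mutant 1, where its value is the lowest of the 6 genes.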

How the data were processed

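Total RNA of 6 pools was turned into labelled cDNA for whole-transcript arrays, per the labels' protocols. The deposited values are intensity values on a linear scale (20.5 to 21070) that the authors made with RMA, per the submitters' processing notes; its version and chip description, and whether features were filtered, are unknown here. A log2 of these values was taken and nothing else was normalized. Each of 16311 probe sets with 1 gene symbol (of 18064; 734 had several and 1019 none) entered a fit in limma 3.58.1 under R 4.3.3 (lmFit, eBayes, mutant minus control, no covariate), with Benjamini-Hochberg adjustment over all of them and a threshold of 0.05. The probe set with the highest mean stood for a gene. The script was tested on simulated data.

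The family members and all gene lists were chosen with earlier results of these data known, and no list was tested as a set. Named genes are the members, Taf10, up to 4 genes of each pathway list with the smallest p, the nearest measured neighbours of each member, and the 5 genes nearest Cnn2 in profile. Named outside the rule, after values were seen, were Acta2, Myh11, Srf, Myocd, Mrtfa, Mrtfb, Polr2e, Actc1, Stmn2, Tbx6, Hes7, Cyp26a1, Rspo3, markers named for their level, genes named for a CArG box, and those marked in the text. Older symbols were matched through the RefSeq table of GRCm38.p6. Pools are biological replicates by their labels, so p-values reflect differences among pools, and 6 arrays limit the precision. A replicate block, quantile normalization, median centring, a filter at the 40th percentile of level, all probe sets, trended and robust eBayes, array weights and left-out arrays were tried. Whether replicate numbers pair the pools is not known, and the main fit did not pair them.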

Additional observations from a re-analysis of the deposited data

How the results depend on the processing

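The log2 difference of Cnn2 stayed between -1.76 and -1.48 without each array in turn, and moved most under array weights (-1.44) among the other settings. It differed from -1.63 by less than the spread between pools in all 14 alternatives. All of them reuse the arrays by which Cnn2 was chosen, so they do not test the size of its fall. Of 68 values for the 5 other family genes under these alternatives (Cnn1 and Tagln are absent under the filter on level), 59 kept direction and side of the threshold, 4 passed and 5 turned sign: Cnn1 to -0.0070 and Cnn3 to 0.042 after quantile normalization, and Cnn1 within its range of -0.015 to 0.161 without 1 array. Other genes near 0 also turned sign: BC016579 (-0.011 without mutant 3, -0.0063 without control 3 and mutant 3), Cfap45 (-0.0050 with array weights) and Ecsit (-0.101 to 0.034 without 1 array), where BC016579 ran from -0.011 to 0.106. The causes were not tested.

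Without 1 array in turn, counts of genes called higher and lower ran from 0 to 0 and 0 to 1 for the 5 other family genes, 0 to 1 and 1 to 4 for contractile genes, 0 to 2 and 0 to 7 for the SRF list, 0 to 8 and 0 to 3 for other calponin homology genes and 0 to 1 and 0 to 3 for actin turnover, and over all genes from 20 to 971 and 21 to 974. With array weights 2 family genes were lower (Tagln and Tagln2), 3 contractile genes higher, 5 of the SRF list higher and 11 lower, 9 calponin homology genes higher and 4 turnover genes lower, where all genes gave 1870 higher and 1738 lower. Without control 3 and mutant 3, 1 family gene was lower (Tagln), 2 contractile genes higher and 5 lower, 4 of the SRF list higher and 7 lower, 8 calponin homology genes higher and 4 lower, and 2 turnover genes lower. The filter on level gave 2 of the SRF list higher, and trended and robust eBayes gave 0 turnover genes higher. That filter also left out Kcnmb1, Fhl2 and Actn2 for their low level, so their calls were not tried under it. With the replicate number as a block, 2 contractile genes and 2 of the SRF list were higher and 0 turnover genes, and 547 genes were higher and 537 lower in all. Deviations of same-numbered pools correlated at 0.117, 0.0536 and 0.293 over 15153 genes. The last, of control 3 with mutant 3, was the highest of any pair, while control 1 correlated best with mutant 2 (0.206). These values do not settle whether the pools were paired. The labels name no pairs, so the numbers were not taken to pair the pools in the main fit.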
